A study of Arabidopsis thaliana with 6 samples.

Results

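The plastid genome transcripts of Arabidopsis roots were read from the 133 rows of the deposited expression table whose identifier begins with ATCG, out of 33602 rows in all. Of these 133 genes, 101 were above 0 in at least 1 library, 40 were above 0 in all 6 libraries, 20 were above 0 in a single library and 32 were listed at 0 throughout. The libraries came from polyadenylated RNA of roots of Col-0 seedlings aged 8 days. They fall into 3 groups. Replicates 5 and 6 are the phl2 mutant without enough phosphate, replicates 3 and 4 are wild type on the same deficient medium, and replicates 1 and 2 are wild type on phosphate-sufficient medium. PHL2 is a MYB transcription factor of the PHR1 family, which activates genes of the phosphate starvation response. The type of the phl2 allele and the origin of replicates from separate plants are not given in the labels. The p-values below therefore rest on a spread between libraries that may be technical only. A phl2 group on sufficient medium was not analysed here.

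Plastids carry a small circular genome whose genes encode their own ribosomal and transfer RNAs, part of their ribosomal proteins, a multi-subunit RNA polymerase and part of the photosynthetic complexes. In roots most plastids do not photosynthesise, and the nucleus supplies most of their proteins. Messenger RNA from the nucleus carries a stable poly(A) tail, whereas in plastids a poly(A) tail marks an RNA for degradation, so libraries of polyadenylated RNA hold plastid RNA only as a small and selected fraction. A large inverted repeat in the plastid genome holds the rRNA genes and several others as identical copies. Many ribosomal protein genes lie in 1 long cluster that is read as shared precursor RNAs.

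The files do not pair the ATCG identifiers with gene names. The deposited unit is RPKM, which divides the reads of a gene by its length and by a total per library (the denominator). The values run in steps of 1 read, so that the values of a gene over the 6 libraries give its length and its whole reads. Of the 101 genes above 0, 96 had the length of a plastid gene in the TAIR10.1 annotation from RefSeq, which lists 129 plastid loci on a genome of 154478 bases. This length belonged to a single gene symbol for 71 of them and to several symbols for 25, mostly tRNAs. A gene name given below is that of the only annotated plastid gene of the same length, and where several share it the length is given in its place. The annotation notes of other genes name 6 of the identifiers, and for 5 of these the note and the length gave the same gene.

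The data were sparse. Only 8 of the 133 genes had 10 or more reads in every library. Of the 101 genes above 0, 89 never reached 10 reads in any library and 37 never had more than 1 read. In a gene of 73 bases, the length of several tRNAs, 1 read is worth 1.07 and 1.24 RPKM in the phl2 columns, 1.37 and 1.26 RPKM in wild type on deficient medium and 1.45 and 1.37 RPKM in wild type on sufficient medium. A short gene thus passes 1 RPKM on a single read, whereas a gene of 1 kb needs 9.42 to 12.8 reads.

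The sequences of 6 plastid genes around their longest run of A are shown because the libraries were made from RNA with A tracts and these genes span the range of levels and of A runs. They are taken from TAIR10.1 (RefSeq), 5′ to 3′ on the strand of the gene, with the A run in capitals.
rrn23S, plastid:104959-104995, plus strand: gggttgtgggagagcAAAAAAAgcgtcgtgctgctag
rrn16S, plastid:102229-102263, plus strand: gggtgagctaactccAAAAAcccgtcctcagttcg
rps3, plastid:83353-83389, minus strand: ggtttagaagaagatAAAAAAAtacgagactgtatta
rpoA, plastid:78080-78123, minus strand: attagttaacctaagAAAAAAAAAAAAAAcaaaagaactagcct
rbcL, plastid:55489-55523, plus strand: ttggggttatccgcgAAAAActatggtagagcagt
accD, plastid:57357-57399, plus strand: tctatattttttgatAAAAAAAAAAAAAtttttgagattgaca
The runs are of 7 A in rrn23S, 5 in rrn16S, 7 in rps3, 14 in rpoA, 5 in rbcL and 13 in accD. The mean levels of these genes over the 3 groups were 9.30 RPKM for rrn23S, 5.69 for rrn16S, 0.908 for rps3, 0.369 for rpoA, 0.689 for rbcL and 0.0436 for accD, so the genes with the longest runs were not the highest ones. Over the 58 genes of unambiguous length, taking 1 value per symbol, the Spearman correlation of level was -0.031 with the longest A run, -0.48 with the longest run of T, 0.20 with the share of A, 0.25 with the share of G and C and -0.20 with length. The trans-spliced rps12 is not among them. All 58 share the same libraries and most rest on few reads, and the correlations are given as a description only.

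Ribosomal RNA supplied most of the plastid reads. Over all plastid genes, with both copies of repeated genes counted, the phl2 columns held 1062 and 792 reads, wild type on deficient medium 1117 and 900 reads, and wild type on sufficient medium 1159 and 913 reads. Genes of rRNA length took 73.9% and 71.3% of these in phl2, 76.7% and 69.6% in wild type on deficient medium and 77.0% and 72.2% in wild type on sufficient medium. The rRNA genes lie in the repeat, so these shares are larger than they would be with 1 copy. Plastid reads were also scaled to the authors' denominator alone (RPM, without the gene length). For the 9 repeated genes with a length of their own, 1 copy was counted. Other repeated genes, such as those of shared tRNA length, stayed in both copies. The values were 49.1 and 42.0 RPM in phl2 and 64.7 and 50.8 in wild type on deficient medium. Wild type on sufficient medium had 70.8 and 53.1. The wild-type groups overlap, and both phl2 values lie below all wild-type values, but the phl2 columns share most of their reads and are not independent. The 95% exact Poisson interval was 45.4 to 53.1 for phl2 replicate 5 and 46.7 to 55.2 for wild-type replicate 4, the library next above it, so these neighbours do not differ beyond counting error. Intervals cover counting error only. With rRNA and tRNA genes left out, the values were 17.4 and 16.0 RPM in phl2, 20.4 and 20.5 in wild type on deficient medium and 21.9 and 18.9 in wild type on sufficient medium.

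**Figure D1:**
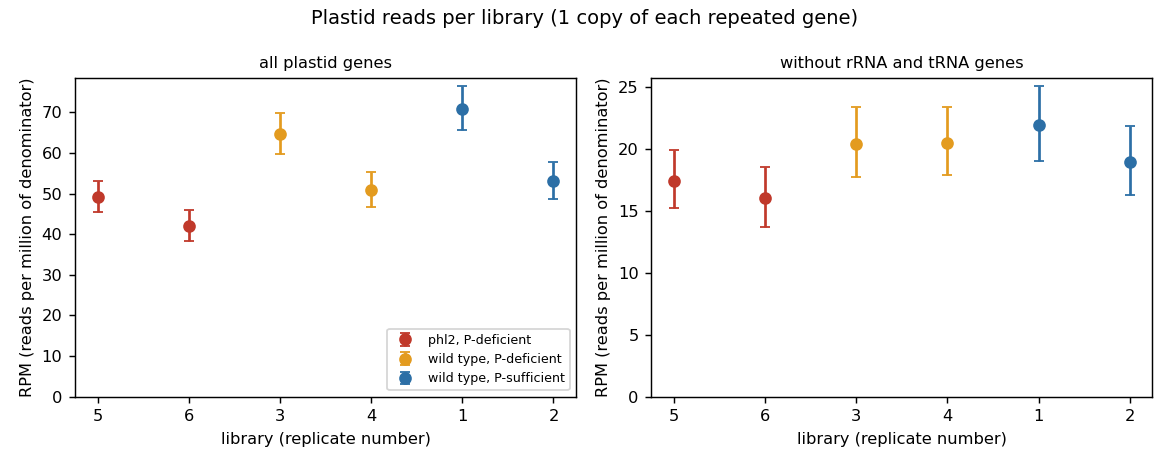
Plastid reads scaled to the deposited denominator (RPM) in each library (y axis, from 0), over all plastid genes at left and without rRNA and tRNA genes at right. Repeated genes with a length of their own were counted in 1 copy, other repeated genes in both. Points are libraries named by replicate number, ordered phl2, wild type deficient, wild type sufficient, and bars are 95% exact Poisson intervals. The phl2 libraries sit at 49.1 and 42.0 at left, below the wild-type libraries at 50.8 to 70.8.

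The order of the groups depended on what the reads were divided by. The reads of the table were summed over the genes whose identifier is in the reference, which leaves out the plastid genes. This sum made up 5.44% and 6.01% of the denominator in phl2, 9.07% and 8.39% in wild type on deficient medium and 7.04% and 6.17% in wild type on sufficient medium. Set against this sum, here called a share of the table, plastid reads came to 0.153% and 0.119% in phl2, 0.123% and 0.0986% in wild type on deficient medium and 0.175% and 0.148% in wild type on sufficient medium. On this basis wild type on deficient medium was the lower of the wild-type groups with no overlap, and the phl2 values overlapped both. With both copies of repeated genes counted, the log2 ratio of the group means, for phl2 over wild type on deficient medium, was -0.33 for RPM and 0.30 as a share of the table. For wild type on deficient over sufficient medium it was -0.15 for RPM and -0.54 as a share of the table. These ratios are descriptions and were not tested.

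The 23S rRNA, the catalytic RNA of the large ribosomal subunit, was the most abundant plastid RNA. The gene ATCG00950, of 2810 bases, had 8.06 and 7.04 RPKM in phl2, 11.1 and 7.58 RPKM in wild type on deficient medium and 13.3 and 8.44 RPKM in wild type on sufficient medium. Its other copy ATCG01180 had 8.15 and 7.20 RPKM in phl2, 10.9 and 7.26 RPKM in wild type on deficient medium and 13.5 and 9.08 RPKM in wild type on sufficient medium. For each copy both phl2 values lie below both values of wild type on sufficient medium, and wild type on deficient medium overlaps both groups. Replicates 1 and 3 stand above the other library of their group. The 16S rRNA of the small subunit, ATCG00920, had 5.40 and 3.63 RPKM in phl2, 7.96 and 5.61 RPKM in wild type on deficient medium and 6.70 and 6.04 RPKM in wild type on sufficient medium. Both phl2 values of this copy are below its wild-type values, and the wild-type groups overlap. Its identical copy ATCG01210 had 5.19 and 3.75 RPKM in phl2, 7.69 and 4.87 RPKM in wild type on deficient medium and 6.41 and 5.03 RPKM in wild type on sufficient medium, and there all 3 groups overlap. In limma on log2(RPKM + 1), fitted across 11463 genes, the log2 change of ATCG00920 between phl2 and wild type on deficient medium was -0.48 ± 0.21 (SE), with a Benjamini-Hochberg adjusted p of 0.108. For ATCG01210 it was -0.38 ± 0.25 (SE, adjusted p = 0.235). The median change over all genes tested in that comparison was -0.48. After the rescaling described below, ATCG00920 was at 0.14 and ATCG01210 at 0.23, so the sign depended on the scaling. Between the wild-type groups the change of ATCG00920 as deposited was 0.06 ± 0.17 (SE, adjusted p = 0.787 in limma). The 4.5S rRNA of the large subunit, by contrast, is short and gave at most 1 read per library. Its sequence is shown because it lies in the same rRNA gene cluster as rrn23S, and no part is set in capitals.
rrn4.5S, plastid:107599-107701, plus strand: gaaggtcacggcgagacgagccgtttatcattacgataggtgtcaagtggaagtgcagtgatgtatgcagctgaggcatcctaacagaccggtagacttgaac
Both 4.5S copies, ATCG00960 and ATCG01170, were at 0 in the phl2 columns, at 0.968 and 0.892 RPKM in wild type on deficient medium and at 0 and 0.971 RPKM in wild type on sufficient medium. Each value above 0 is 1 read, and the difference was not detectable at this depth.

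**Figure D2:**
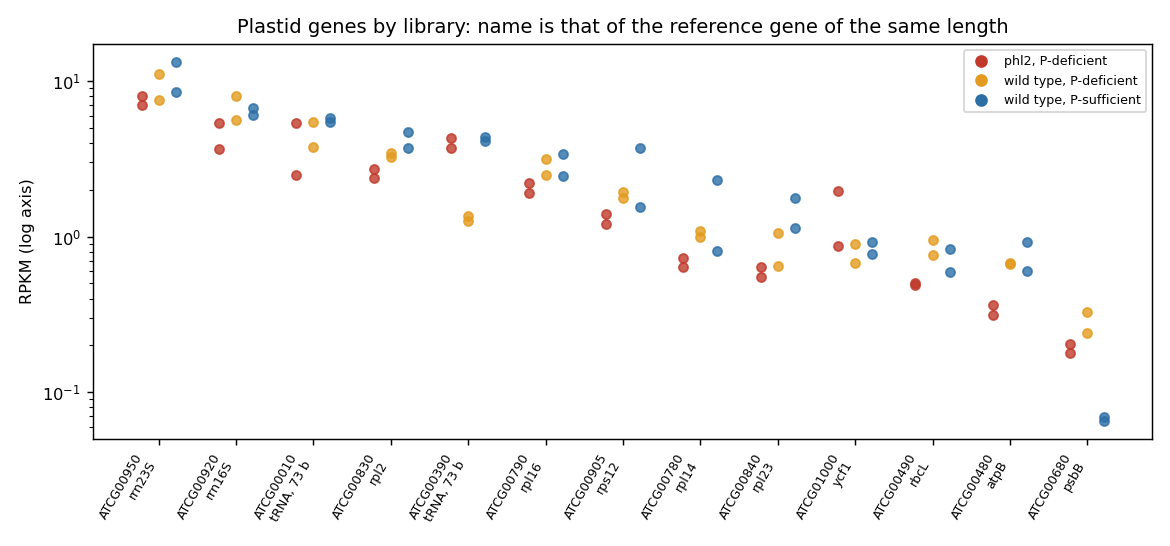
RPKM (log axis) of 13 plastid genes in each library, named by identifier and by the reference gene of the same length. Points are libraries, drawn left to right within a gene as phl2, wild type deficient and wild type sufficient, and a library at 0 would have no point. ATCG00950 (rrn23S) is highest at 7.04 to 13.3 RPKM, and the wild-type deficient points of ATCG00390, a tRNA-length gene, stand below the other groups.

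Among proteins, the ribosomal proteins were the highest class. The 21 genes of ribosomal protein length had a median level of 0.968 RPKM over the groups, and 16 of them were above 0 in all 6 libraries. The highest was rpl2, a protein of the large subunit next to its catalytic centre. The copy ATCG00830 had 2.37 and 2.74 RPKM in phl2, 3.26 and 3.45 RPKM in wild type on deficient medium and 3.73 and 4.73 RPKM in wild type on sufficient medium. The groups do not overlap and stand in that order, low to high. The phl2 values both rest on 25 reads and differ only through the denominator, so they stand for 1 sample. The log2 changes of ATCG00830 were -0.29 ± 0.20 (SE) for phl2 against wild type on deficient medium and -0.26 ± 0.16 (SE) for deficient against sufficient medium in wild type, and neither passed in limma (adjusted p = 0.242 and 0.228). The gene rpl16 (ATCG00790, large subunit) had 1.91 and 2.21 RPKM in phl2, 3.18 and 2.48 RPKM in wild type on deficient medium and 3.38 and 2.45 RPKM in wild type on sufficient medium. The phl2 values of rpl16 are the lowest of the 6, and the wild-type groups overlap. Over all genes tested, the median log2 change in phl2 against wild type on deficient medium was -0.48. After the rescaling described below, ATCG00830 was at 0.25 and ATCG00790 at 0.21 in that comparison, so their direction depended on the scaling. The 258-base part of rps12 (ATCG00905), a small-subunit protein whose RNA is joined from separately transcribed parts, had 1.21 and 1.40 RPKM in phl2, 1.93 and 1.78 RPKM in wild type on deficient medium and 3.70 and 1.55 RPKM in wild type on sufficient medium. Its wild-type sufficient value in replicate 1 rests on 9 reads, against 4 in replicate 2.

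Many of the higher ribosomal protein genes lay together. In TAIR10.1, 11 loci from rpl23 to rpoA follow each other on the minus strand at plastid:77901-86143, and 9 of them had a length of their own. These 9 had a median level of 1.05 RPKM, from 0.369 for rpoA, the alpha subunit of the plastid RNA polymerase, to 3.34 for rpl2. The 45 protein genes elsewhere with a length of their own had a median of 0.129 RPKM, from 0.0313 to 1.85, the highest being rps12. Within the cluster, rpl14 (ATCG00780), rps19 (ATCG00820) and rps3 (ATCG00800) had mean levels of 0.908 to 1.09 RPKM. Outside it, rpl33 (ATCG00640, large subunit) had 1.55 and 1.797 RPKM in phl2, 0.496 and 0.914 RPKM in wild type on deficient medium and 1.06 and 0.498 RPKM in wild type on sufficient medium. It is a gene of 201 bases, and these values rest on 4 reads in each phl2 column and 1 or 2 reads in each wild-type library. Its log2 change in phl2 against wild type on deficient medium was 0.66 ± 0.25 (SE) and did not pass in limma (adjusted p = 0.0761).

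**Figure D3:**
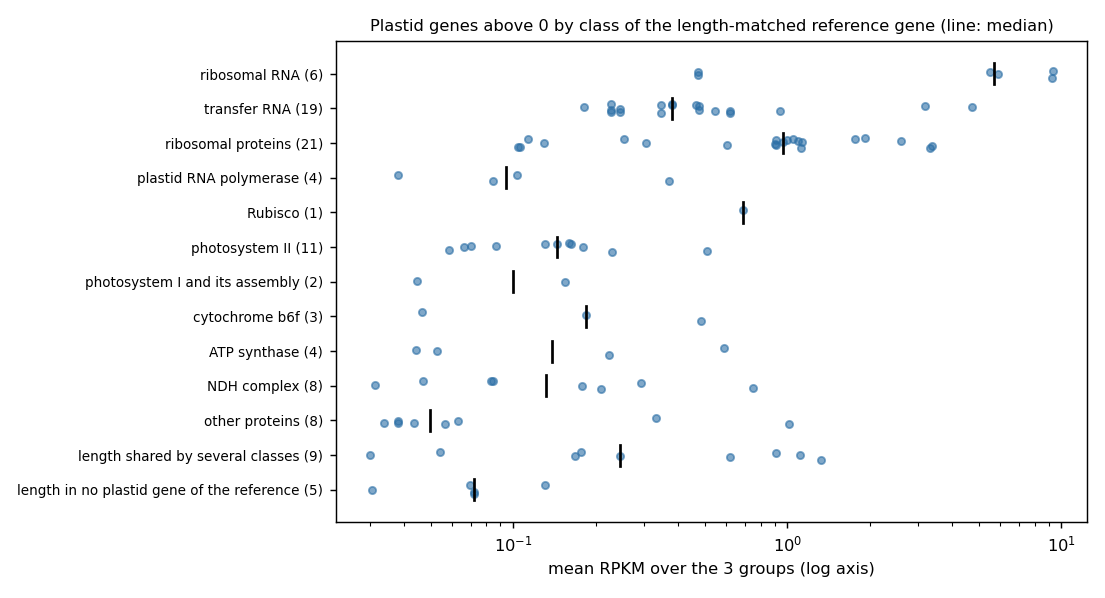
Mean RPKM over the 3 groups (x axis, log) of each plastid gene above 0, by class of the reference gene of the same length, with the number of genes in parentheses. Points are genes and black lines are class medians. The rRNA genes, with a median of 5.69 RPKM, and the ribosomal protein genes, at 0.968 RPKM, stand above the classes of the photosynthetic complexes, whose medians lie between 0.0996 and 0.185 RPKM.

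Photosynthesis genes were near the limit of detection, and none of those with a length of their own reached 1 RPKM in 2 libraries, so none was tested. rbcL (ATCG00490), the large subunit of the carbon-fixing enzyme Rubisco, had 0.488 and 0.502 RPKM in phl2, 0.761 and 0.957 RPKM in wild type on deficient medium and 0.590 and 0.834 RPKM in wild type on sufficient medium. The phl2 values of rbcL are the lowest, resting on 9 and 8 reads, and the wild-type groups overlap with 8 to 15 reads. atpB (ATCG00480), the beta subunit of the ATP synthase, had 0.313 and 0.362 RPKM in phl2, 0.666 and 0.675 RPKM in wild type on deficient medium and 0.922 and 0.601 RPKM in wild type on sufficient medium, with the same arrangement of groups. psbB (ATCG00680), which encodes the CP47 antenna protein of photosystem II, had 0.205 and 0.177 RPKM in phl2, 0.326 and 0.241 RPKM in wild type on deficient medium and 0.0695 and 0.0655 RPKM in wild type on sufficient medium. Its sufficient libraries held 1 read each, against 5 and 4 reads in wild type on deficient medium. petB (ATCG00720), cytochrome b6 of the cytochrome b6f complex, had 0.241 and 0.139 RPKM in phl2, 0.769 and 1.13 RPKM in wild type on deficient medium and 0.164 and 0.463 RPKM in wild type on sufficient medium. Wild type on deficient medium was thus highest for petB, without overlap, on 5 and 8 reads. psaA (ATCG00350), a core protein of photosystem I, had 0.208 and 0.240 RPKM in phl2, on 6 reads each. Wild type had 0.0885 and 0.163 RPKM on deficient medium and 0.0943 and 0.133 RPKM on sufficient medium, on 2 to 4 reads. The phl2 values of psaA are thus the highest, unlike those of rbcL and atpB. As deposited, 91.2% of all genes tested were lower in phl2 than in wild type on deficient medium. The genes of 1062 bases, the length of both psbA and psbD, which encode the core proteins of photosystem II, never exceeded 4 reads.

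Of the NDH complex, which carries electrons back around photosystem I, 8 genes with a length of their own were above 0. Genes of 306 bases, the length of ndhE and rps18, are not counted among them. Of these 8, ndhI (ATCG01090) was highest, with 0.602 and 0.696 RPKM in phl2, 1.15 and 0.885 RPKM in wild type on deficient medium and 0.205 and 0.964 RPKM in wild type on sufficient medium. The phl2 values of ndhI lie below those of wild type on deficient medium, and wild type on sufficient medium overlaps both. The plastid RNA polymerase genes other than rpoA were low, rpoB (ATCG00190, the beta subunit) lying between 0.0728 and 0.132 RPKM. Nuclear genes for plastid RNA synthesis and processing, such as sigma factors and parts of the transcriptionally active chromosome, were also low. Of 27 listed, 5 (RPOT3, RPOT2, TRXz, PNP1 and RNJ) were left out because their symbols were not matched to their loci in the reference. Of the other 22, 3 were tested. Limma called 0 of these 3 in either comparison, and 0 had an unadjusted p under 0.05. Over all genes tested, 28.0% were called higher and 4.45% lower between the wild-type groups, and 0.288% higher and 19.5% lower in phl2. Between the wild-type groups, 1 of them, SIG5, was called lower after the rescaling described below, against 11.7% of all genes. SIG5, a sigma factor of the plastid polymerase, had 0.492 and 0.569 RPKM in phl2, 0.890 and 0.724 RPKM in wild type on deficient medium and 1.23 and 1.26 RPKM in wild type on sufficient medium. Its log2 change between the wild-type groups was -0.31 ± 0.15 as deposited (SE, adjusted p = 0.135 in limma). After rescaling it was -0.55 (adjusted p = 0.0328 in limma).

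Of the 133 plastid genes, 31 reached 1 RPKM in at least 2 of the 6 libraries and were tested: 4 of rRNA length, 13 of ribosomal protein length, 10 of tRNA length and 4 whose length is shared by several classes. In 24 of the 31, no library held 10 reads. Both copies of rrn23S, rrn16S, rpl2, rpl23 and rps12 are among the 31, and the values of such a pair are not independent. Some genes of tRNA length also had the same values in every library, such as ATCG00850 and ATCG01290. The counts and medians below take each of these identifiers as a separate gene. Just inside this limit were 9 genes with exactly 2 libraries at 1 RPKM, among them ATCG00780 (rpl14) with 2.30 and 1.08 RPKM in its highest libraries. Just outside were 16 genes with 1 such library, among them ATCG01240 (rps7), whose highest value was 1.06 RPKM and whose other values lay between 0.785 and 0.965 RPKM. A short gene that passes through the group where it is high had to differ, so the counts below describe the tested genes only.

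The comparison of wild type on deficient with sufficient medium asks how phosphate starvation changes the transcripts. As deposited, limma called 0 of the 31 plastid genes higher and 2 lower on deficient medium at adjusted p under 0.05, where 28.0% of all 11463 genes tested were called higher and 4.45% lower. The median log2 change was -0.26 over the plastid genes and 0.33 over all genes, a difference of -0.59. Changes were negative in 24 of the 31 plastid genes, which is 77.4%, and in 20.3% of all genes. At an unadjusted p under 0.05, 0 plastid genes were higher and 4 lower, beside 4772 higher and 729 lower of all genes. Without replicate 1 the median over the plastid genes became 0, beside 0.41 over all genes. Without replicate 2 it was -0.37, beside 0.25 over all genes. The 19 tested mitochondrial genes, the other organelle set, had a median of 0.034, with 4 called higher and 0 lower.

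Because most genes moved together between these libraries, the comparison was also made with each library rescaled by the median of its ratios to the geometric mean over genes, which moved the median of all genes to 0.0046. Limma then called 0 plastid genes higher and 8 lower, against 8.10% and 11.7% of all genes, and the plastid median was -0.56. The 8 genes were ATCG01180 (rrn23S), ATCG01310 (rpl2), ATCG01300 (rpl23), ATCG00800 (rps3), ATCG00650 (306 bases, the length of ndhE and rps18) and 3 of tRNA length, ATCG00010, ATCG00390 and ATCG00230. For ATCG01180 the rescaled log2 change was -0.74 ± 0.17 (SE, adjusted p = 0.0295 in limma). Its identical copy ATCG00950 had -0.64 ± 0.18 and missed the threshold (adjusted p = 0.0519 in limma). The other copy of rpl2, ATCG00830, had -0.65 ± 0.18 and also missed it (adjusted p = 0.0526 in limma). So did the other copy of rpl23, ATCG00840, with -0.65 ± 0.21 (adjusted p = 0.0724 in limma).

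**Figure D4:**
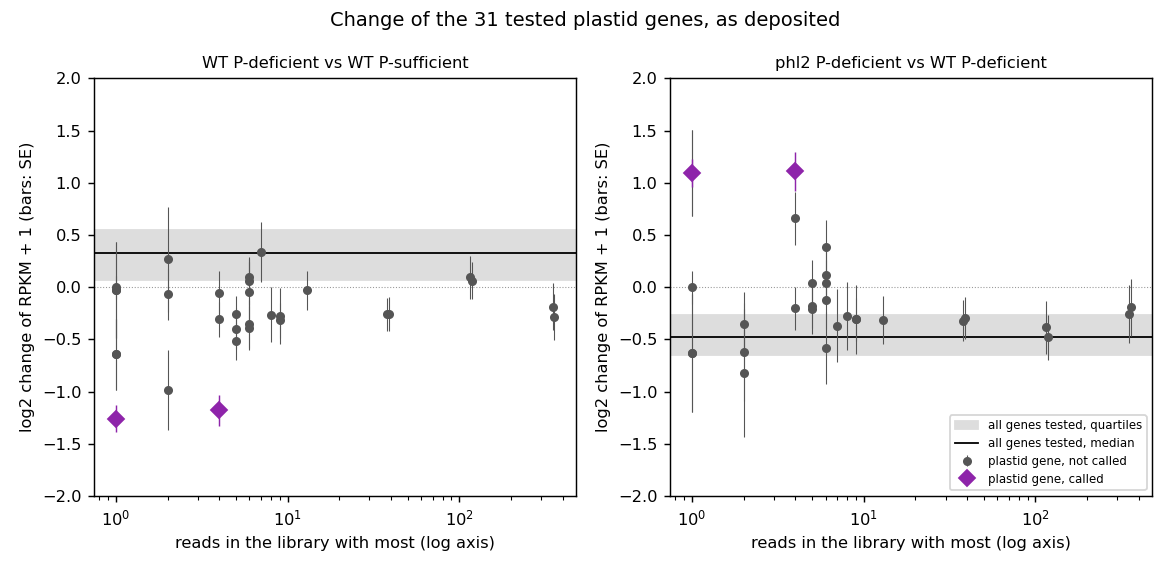
Log2 change of RPKM + 1 (y axis, bars are standard errors from limma) of the 31 tested plastid genes against the reads of each gene in its highest library (x axis, log), for wild type on deficient against sufficient medium at left and phl2 against wild type on deficient medium at right. Black lines and grey bands are the median and quartiles of all 11463 genes tested, and diamonds are called genes. The called genes had at most 4 reads in any library.

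The calls made on the values as deposited rested on very few reads. ATCG00390, of 73 bases, had 4.28 and 3.71 RPKM in phl2, 1.37 and 1.26 RPKM in wild type on deficient medium and 4.36 and 4.11 RPKM in wild type on sufficient medium. These are 4 and 3 reads in phl2, 1 and 1 in wild type on deficient medium and 3 and 3 in wild type on sufficient medium. It was lower in wild type on deficient medium than on sufficient medium by a log2 change of -1.18 ± 0.15 (SE, adjusted p = 0.00139 in limma). It was higher in phl2 than in wild type on deficient medium by 1.11 ± 0.19 (SE, adjusted p = 0.0400 in limma). These comparisons share the wild-type deficient libraries. The annotation has 7 tRNA loci of 73 bases, so the tRNA cannot be named from its length. ATCG00230, of 74 bases, had 1 read in each wild-type sufficient library and 0 in the other 4, with a log2 change of -1.26 ± 0.13 (SE, adjusted p = 0.000458 in limma). ATCG00610, also of 74 bases, had 1 read in each phl2 column and 0 in the 4 wild-type libraries, with 1.096 ± 0.137 (SE, adjusted p = 0.0294 in limma). Single reads in every library of a group give a spread near 0, since the value of 1 read is nearly the same in each. The phl2 columns also share their reads, so that the pair of reads of ATCG00610 is not an independent pair. ATCG00230 and ATCG00610 reached the limit for testing only through the group where they were high, so the filter chose them on the difference that was then tested, and their calls support nothing. None of the 7 tested genes that reached 10 reads in a library was called in either comparison as deposited. A gene of the same length as ATCG00390, ATCG00010, had 5 and 2 reads in phl2, 4 and 3 in wild type on deficient medium and 4 and 4 in wild type on sufficient medium.

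The comparison of phl2 with wild type on deficient medium asks what the mutation changes during starvation. Limma called 2 of the 31 plastid genes higher in phl2, ATCG00390 and ATCG00610, and 0 lower, where 0.288% of all genes tested were called higher and 19.5% lower. At an unadjusted p under 0.05, 5 plastid genes were higher and 0 lower, beside 103 higher and 5456 lower of all 11463 genes. The median log2 change was -0.26 over the plastid genes and -0.48 over all genes, a difference of 0.22. After rescaling, which moved the median of all genes to -0.0092, limma called 1 plastid gene higher (ATCG00390) and 0 lower, against 0.0698% and 0.0174% of all genes. The plastid median was then 0.22, so the direction of the plastid genes as a set depended on the scaling. Without replicate 3 the median as deposited was -0.048, beside -0.42 over all genes. Without replicate 3 the adjusted p of ATCG00390 was 0.218, and without replicate 4 it was 0.109.

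Nuclear markers of tissue were read beside the plastid values. The 18 nuclear genes of photosynthesis, markers of shoot tissue, were all above 0 in some library, and 3 of them, RBCS1B, RBCS2B and RBCS3B, were at 0 in both phl2 columns. Their summed level was 14.0 and 15.5 RPKM in phl2, 34.1 and 26.7 RPKM in wild type on deficient medium and 44.7 and 37.5 RPKM in wild type on sufficient medium. Of the 11 tested, limma called 4 lower and 0 higher in wild type on deficient medium, against 4.45% of all genes lower and 28.0% higher. In phl2 it called 4 lower and 0 higher, against 19.5% of all genes lower and 0.288% higher. After rescaling the counts were 6 lower in the first comparison, against 11.7% of all genes, and 0 in the second, against 0.0174%. RBCS1A, the small subunit of Rubisco, had 0.152 and 0.176 RPKM in phl2, 2.24 and 1.25 RPKM in wild type on deficient medium and 4.46 and 3.32 RPKM in wild type on sufficient medium. RCA, which activates Rubisco, had 0.439 and 0.508 RPKM in phl2, 1.78 and 1.64 RPKM in wild type on deficient medium and 3.36 and 3.43 RPKM in wild type on sufficient medium. For both genes the groups do not overlap. Of 10 root markers, all above 0, the summed level was 29.7 and 34.0 RPKM in phl2, 53.4 and 50.4 RPKM in wild type on deficient medium and 39.7 and 33.5 RPKM in wild type on sufficient medium. Of the 8 root markers tested, limma called 6 higher and 0 lower in wild type on deficient medium, and 0 higher and 4 lower in phl2. After rescaling, 4 were higher and 1 lower in the first comparison, and 0 were called in the second. Over all genes tested, 28.0% were called higher and 4.45% lower between the wild-type groups, and 8.10% and 11.7% after rescaling. For phl2, the shares over all genes are those given above beside the shoot markers. The part of tissue composition in the plastid values was not tested. Fewer plastid-rich cells and less plastid RNA per cell cannot be told apart in these bulk samples.

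The inverted repeat showed how reads with more than 1 placement were counted. For 9 pairs of identifiers the length was that of a gene with identical copies in the reference, and 28 of their 54 pairs of values held equal reads. The pairs of rrn4.5S, of trnL and of ycf2, a very long gene for an essential protein of the plastid envelope, were equal in all 6 libraries. The rpl2 copies differed by at most 1 read in any library. The rrn23S copies were equal in 0 libraries, with differences of up to 18 reads, and the rrn16S copies in 0 libraries, with differences of up to 15 reads. A read from one copy of these genes cannot be assigned to that copy, and the values of a pair are not independent.

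The phl2 columns share most of their reads, and the plastid genes lost a larger share of them in replicate 6 than the genes whose identifier is in the reference. Reads were equal in both columns for 43 of the 60 plastid genes with any read there, and replicate 6 was lower in 17 and higher in 0. Replicate 6 held 270 fewer plastid reads than replicate 5, which is 25.4% of them, against 4.37% over the genes whose identifier is in the reference. Of these missing reads, 81.5% lay in genes of rRNA length, where 28.0% of the reads were missing, and in the other plastid genes 18.1% were missing. ATCG01000, of the length of the short copy of ycf1, which is cut off at the border of the inverted repeat, had 26 reads in replicate 5 and 10 in replicate 6. ATCG01130, of the length of the full ycf1, a protein of the import machinery of the inner envelope, had 34 and 19 reads, and ATCG01010 (ndhF, a membrane subunit of the NDH complex) had 14 and 7 reads. By contrast, the rpl2 and rpl16 genes had equal reads in both columns, with 25 and 25 for ATCG00830 and 10 and 10 for ATCG00790. In limma the columns were averaged into 1 phl2 sample.

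**Figure D5:**
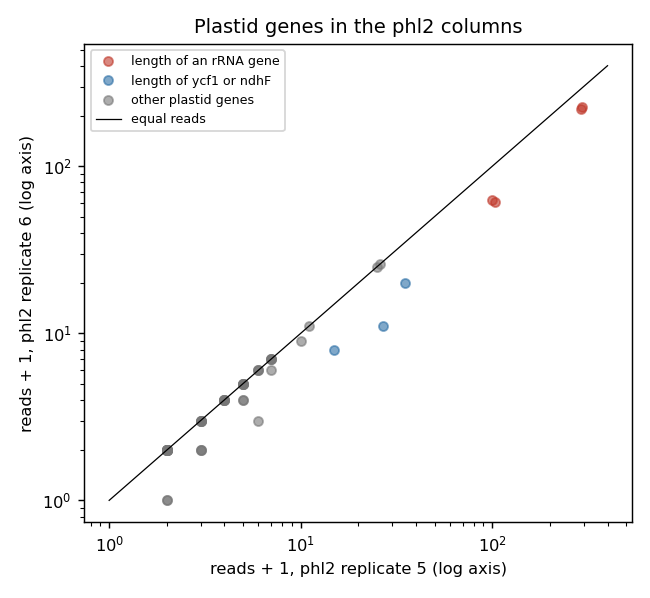
Reads + 1 of each plastid gene in the phl2 columns, replicate 5 on the x axis and replicate 6 on the y axis (both log). Points are genes, coloured by whether their length is that of an rRNA gene, of ycf1 or ndhF, or another, and the line marks equal reads. No gene lies above the line, and the rRNA, ycf1 and ndhF genes lie below it.

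In wild type, ATCG01000 (short ycf1) had 7 and 10 reads on deficient medium and 9 and 8 reads on sufficient medium, below the 26 reads of phl2 replicate 5 and near the 10 reads of replicate 6. ATCG01010 (ndhF) had 1 and 5 reads in wild type on deficient medium and 11 and 5 reads on sufficient medium. Leaving aside rps12, which was not compared, these are the only annotated plastid genes that lie opposite each other, over 39 bases at plastid:110398-110436. The overlap is printed on the plus strand, the strand of ycf1, in capitals with 20 bases on either side, because reads from it belong to either gene when strand is not used.
ycf1 and ndhF overlap, plastid:110378-110456, plus strand: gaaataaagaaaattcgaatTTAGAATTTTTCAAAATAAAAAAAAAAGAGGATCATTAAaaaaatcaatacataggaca
The libraries kept strand by the dUTP method, per the labels, but the strand setting of the counting is not given in the sources used here, so reads of ycf1 and ndhF in this stretch cannot be told apart.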

How the data were processed

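Polyadenylated root RNA was sequenced in 6 libraries of 3 groups. The authors deposited RPKM values in 1 table of 33602 genes. Per the submitters' processing notes, TAIR10, TopHat2 and DESeq2 were used, with no version or role. What counted the reads, and which reads entered the denominator, is not stated in these sources. From the steps of 1 read in short nuclear genes, the denominators behind the deposited RPKM were 9416297, 9995144, 10031761, 10886071, 12801163 and 11074400 reads for replicates 1 to 6. With them each plastid gene gave a whole length (relative tolerance 2e-05) and whole reads, the largest distance from a whole number being 0.00103 reads. Lengths were joined to exonic lengths in TAIR10.1 (RefSeq), and 2 genes matched at a multiple of the smallest length. Reads in the table, summed over the genes whose identifier is in the reference and so without the plastid genes, came to 616409 to 913051 per library, which limits the precision. No count test was run, since the deposited unit is RPKM.

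The phl2 columns held equal reads in 81.0% of 21237 genes (relative tolerance 0.001), and replicate 6 was higher in 0 genes. They were counted as 1 sample, their mean, although for plastid genes they differed more, replicate 6 holding 25.4% fewer reads. limma 3.58.1 in R 4.3.3 was fitted to log2(RPKM + 1), for 11463 genes that reached 1 RPKM in at least 2 libraries (pseudocount 1), with 1 mean per group, 5 samples, 2 residual degrees of freedom (prior 6.34) and a trend in the variance. Log2 changes on this scale understate the change of low genes. Tests were two-sided with Benjamini-Hochberg adjustment over all genes, called under 0.05. A lone phl2 sample gives no spread, so the fit takes that of the wild-type libraries for it. Alternatives were other pseudocounts, filters and scalings, both phl2 columns as replicates, no trend, and leaving out each library.

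Genes were named by rule: up to 4 of the highest mean per class, up to 12 called per direction and comparison, those next to the filter limit, overlapping and repeated genes, and up to 4 nuclear factors or markers of the smallest adjusted p. ATCG01240 and the genes marked by their phl2 reads were added after their values were seen. The members and lists were chosen with earlier results of these data known.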

Additional observations from a re-analysis of the deposited data

How the results depend on the processing

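No paired analysis was possible because each replicate number occurs in only 1 group. For wild type on deficient against sufficient medium, the 2 calls among plastid genes became 8 with rescaling over genes, 4 with both phl2 columns as replicates and 0 with a filter at 5 RPKM, which left 5 plastid genes, and ranged from 2 to 6 with a library left out. Their median log2 change of -0.259 became -0.129 with a pseudocount of 4, -0.00615 with no filter (added after seeing the data) and -0.561 with rescaling over genes, and ranged from -0.372 to 0 with a library left out. For phl2 against wild type on deficient medium, the 2 calls became 0 with a pseudocount of 0.1, with no filter and with a filter at 5 RPKM, 1 with rescaling over genes or over plastid genes and 7 (5 higher and 2 lower) with both phl2 columns as replicates, and ranged from 1 to 4 with a library left out. The median of -0.256 became -0.416 with a pseudocount of 0.1, -0.116 with a pseudocount of 4, -0.107 with no filter, 0.224 with rescaling over genes and -0.043 with rescaling over plastid genes, and ranged from -0.305 to -0.0482 with a library left out. The values over all genes moved with the settings too. With both phl2 columns as replicates, 5030 of all genes were called higher and 743 lower between the wild-type groups, and 188 and 7448 in phl2. With no filter the medians over all genes were 0.186 between the wild-type groups and -0.273 in phl2. With a pseudocount of 4 they were 0.16 and -0.224. The cause of these movements was not tested, except that the stricter filter tests fewer genes.

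The log2 ratio of the summed plastid level for wild type on deficient over sufficient medium was -0.146 for RPM (reads over the denominator), -0.544 as a share of table reads, -0.472 of the same without rRNA and -0.594 as a share of summed RPKM. For phl2 over wild type on deficient medium it was -0.326 for RPM, 0.296 as a share of table reads, 0.335 without rRNA and 0.249 as a share of summed RPKM. The call of ATCG00390 held in all 13 alternatives that tested it in wild type. That of ATCG00230 also held in all 13, on 1 read in each wild-type sufficient library. Holding across these settings is therefore no support for either call. In phl2 the call of ATCG00390 was lost in 5 alternatives and that of ATCG00610 in 4. Over all genes, the calls for wild type were 3210 higher and 510 lower, and 928 and 1342 after rescaling. Most plastid genes were too shallow to show a difference at any setting.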
